A study of Mus musculus with 12 samples.

Results

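The 10 genes described here make and handle fat in mouse tissue: Pparg, Cebpa, Lpl, Fabp4, Fabp5, Cd36, Plin2, Adipoq, Apod and Apoe. They were taken by name from the 55418 gene symbols of the count table. The reason was that fat had been described in healing tendons that lack tenomodulin (Tnmd). No measured value served as a rule to choose them, but earlier results of these data were known at the time. The cells did not come from healing tendon. Single ScxGFP+ cells were picked under a microscope with a micromanipulator from non-injured, untreated Achilles tendons digested with collagenase for 8 h, and 6 Tnmd-/- ScxGFP+ and 6 WT ScxGFP+ cells were sequenced. All mice had a C57BL/6 background and carried ScxGFP, a reporter in which regulatory sequence of the tendon transcription factor Scx drives green fluorescent protein. Tnmd-/- is a constitutive knockout of an X-linked gene for a transmembrane glycoprotein of tendon, and the study's WT animals included hemizygous males as well as homozygous and heterozygous females. The tendons numbered 2 by the study's methods, no label ties a cell to an animal, and the age of the animals that gave these cells is not given in the sources used here. Each genotype was therefore treated as 1 sample, with no test and no p-value. All intervals below are 95% intervals that cover counting error alone, and cells differed by far more than that.

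In fat cell formation, Pparg and Cebpa encode transcription factors that switch on each other and the genes of the mature fat cell. Lipoprotein lipase (Lpl) frees fatty acids from circulating lipoproteins, Cd36 takes them up, the binding proteins Fabp4 and Fabp5 carry them within the cell, and Plin2 coats the droplets in which they are stored. Adipoq is the hormone adiponectin of mature adipocytes. Apod and Apoe are secreted lipid carriers that fibroblasts and other non-fat cells also make.

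Total counts ranged from 892713 to 10333351 per Tnmd-/- cell and from 4516036 to 13613080 per WT cell. By counting error alone a count of 0 allows up to 3 counts, as a 1-sided 95% limit. These stood for 0.220 to 3.36 counts per 1000000 counts (CPM) in a single cell. RNA lost before counting is not covered by this limit, nor by the bounds on ratios that rest on it. Such bounds also leave out the counting error of the higher sum. Tnmd had 8 counts over the 6 Tnmd-/- cells but was close to absent in most WT cells too: WT cell 14 held 10178 counts, WT cell 2 held 7 and the other 4 held 0. Scx reached 10 counts in WT cells 1, 4 and 10 and in no Tnmd-/- cell. Of 14 tendon fibroblast markers, 13 were seen in at least 1 cell, and their summed level was 1696 to 87463 CPM in Tnmd-/- and 32026 to 176924 CPM in WT cells. Tnmd-/- cell 3 stood apart, with 51.8% of its counts from mitochondrial genes against 1.75% to 7.30% in the other cells, and with the lowest level of the tendon matrix gene Dcn (928 CPM against 7337 or more). The study also graded 3 cells of each genotype as more degraded, namely Tnmd-/- cells 1, 3 and 7 and WT cells 1, 2 and 14.

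Most of the 10 genes were not detected in most cells. Pparg, Fabp5 and Adipoq had 0 counts in all 12 cells and Lpl had 1. Cebpa was counted in a single WT cell, Cd36 in a single Tnmd-/- cell, and Fabp4 and Plin2 almost wholly in 1 Tnmd-/- cell each. Only Apod and Apoe reached 10 counts in several cells. Of the 120 values (10 genes in 12 cells), 13 reached 10 counts, 8 of 60 in Tnmd-/- and 5 of 60 in WT cells. No cell held more than 2 of the 10 genes at that level: 3 cells held 2, 7 held 1, and WT cells 1 and 10 held none. Sparse detection was common throughout the table, where 1350 to 3633 of the 55418 gene symbols reached 10 counts in a cell. Among genes with at least 20 counts in the 12 cells together, the median gene reached 10 counts in 2 cells. For the 6 of the 10 genes above that minimum the median was 1 cell. After all cells were thinned to 892713 counts, the size of the shallowest, 11 values remained at 10 counts or more. Cebpa in WT cell 4 then stood at 9 counts and Apod in Tnmd-/- cell 3 at 4.

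**Figure D1:**
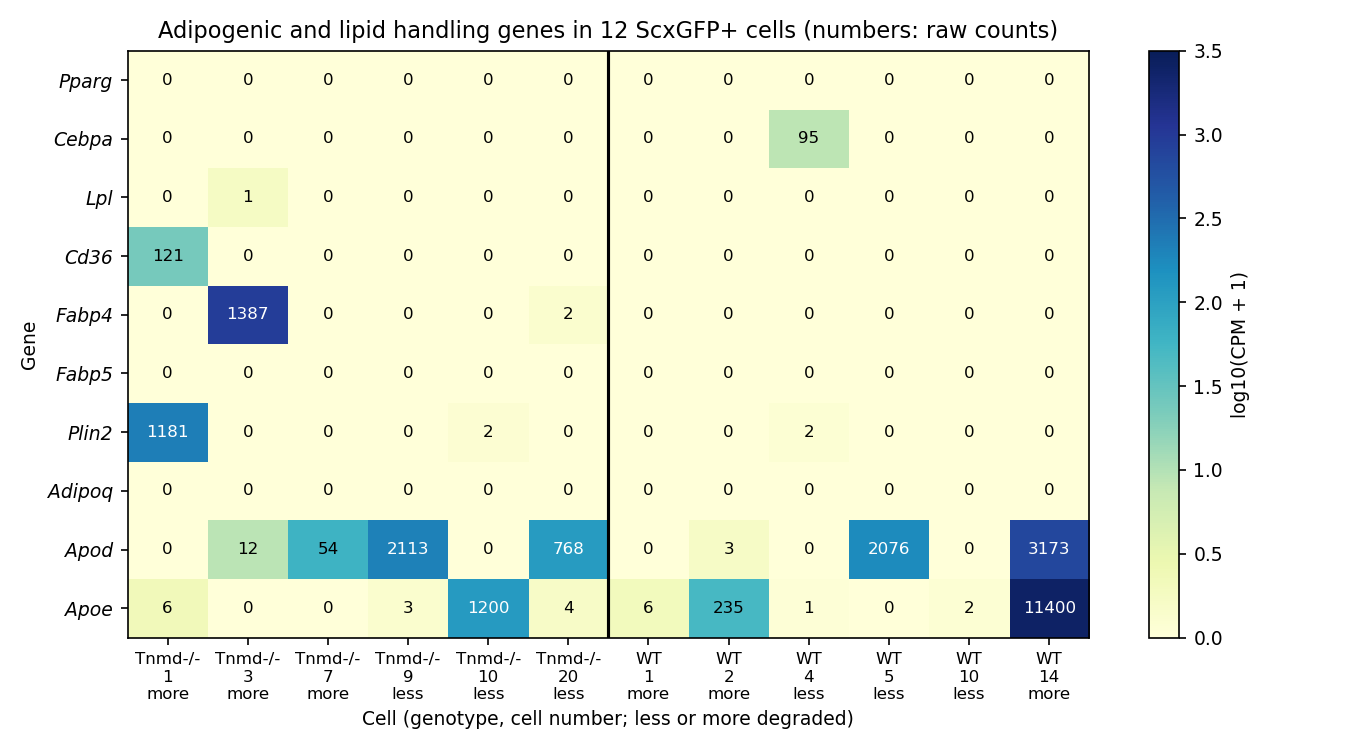
Each row is a gene and each column a cell, with 6 Tnmd-/- cells left of the line and 6 WT cells right of it, named by genotype, cell number and degradation grade. Shade gives log10(CPM + 1) and the printed number the raw count. Dark fields are few: Fabp4 in Tnmd-/- cell 3, Plin2 and Cd36 in Tnmd-/- cell 1, and Apod and Apoe in scattered cells of both genotypes.

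Among the transcription factors, Pparg (ENSMUSG00000000440, chr6:115360951-115490399, GRCm38) had 0 of 88527742 counts. By the 1-sided limit of 3 counts, for counting error alone, that allows a level of up to 0.0339 CPM over all cells. Cebpa (ENSMUSG00000034957, chr7:35119293-35121928) is a gene with a single exon. It had 95 counts in WT cell 4, or 7.62 CPM (6.16 to 9.31), and 0 counts in the other 5 WT cells and in all 6 Tnmd-/- cells. Summed over 6 cells its level was 1.78 CPM in WT, which was at least 20.8-fold above the Tnmd-/- sum when that is set at 3 counts. The bound rests on WT cell 4, without which both genotypes had 0 counts. An antisense gene, Gm45091, covers 1.93% of the Cebpa exon and had 0 counts. The same cell held 1325 of the 1330 WT counts of Rxra, against 1 Tnmd-/- count. Rxra encodes the partner with which the Pparg protein binds DNA, and it was chosen after its values were seen.

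The other 22 transcription factors and cofactors of fat cell formation were written down as a list, and 15 of them reached a minimum of 20 counts in the 12 cells together. With 1 CPM added to each sum, 4 were at least 2-fold higher and 4 at least 2-fold lower in Tnmd-/- cells, where 35.5% and 34.9% of all genes above the minimum were, and the median log2 ratio was -0.49. A single cell held at least 90% of the counts for 2 of the higher and 2 of the lower genes. Such a share in 1 cell was found for 44.2% of all genes above the minimum. Ebf1, a factor of early fat cell commitment, had 161 counts in Tnmd-/- cell 1, 48 in Tnmd-/- cell 20 and 0 in every WT cell, a ratio of at least 6.73 on the log2 scale. Fam120b, which is named in the study's text as a coactivator of Pparg while its list of genes has Fam120a, was higher in the Tnmd-/- sum (108 against 2.92 CPM, log2 ratio 5.21, 4.98 to 5.45). All 3784 of its Tnmd-/- counts were in Tnmd-/- cell 9, and WT cell 5 held 150 of the 156 WT counts. Of 8 genes that restrain fat cell formation 3 passed the minimum, 1 of them 2-fold higher, from a single cell, and none 2-fold lower. Klf4, an early inducer of the programme, was seen in all 12 cells, at 42.0 to 361 CPM in Tnmd-/- and 8.57 to 2219 CPM in WT cells. It was chosen after its values were seen, as 1 of the 2 genes of the lipid role lists that every cell held.

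Of the uptake genes, Lpl (ENSMUSG00000015568, chr8:68880491-68907448) had a single count, in Tnmd-/- cell 3, which is too few for a ratio. Cd36 (ENSMUSG00000002944, chr5:17781690-17888801), the fatty acid translocase, had 121 counts in Tnmd-/- cell 1, or 22.8 CPM (18.9 to 27.2), and 0 in the other 11 cells. The Tnmd-/- sum was 3.45 CPM (2.86 to 4.12), at least 61.4-fold above WT, and it was 0 without Tnmd-/- cell 1.

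Plin2 (ENSMUSG00000028494, chr4:86648386-86670060) coats lipid droplets in many cell types and was high in the same cell. Tnmd-/- cell 1 held 1181 counts, or 222 CPM (210 to 235), Tnmd-/- cell 10 held 2, WT cell 4 held 2 and the other 9 cells held 0. The sums were 33.7 CPM in Tnmd-/- and 0.0374 CPM in WT, a log2 ratio of 9.82 (7.96 to 12.86). Without Tnmd-/- cell 1 the counts were 2 against 2.

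Since Plin2 and Cd36 were the genes of the 10 that Tnmd-/- cell 1 held at 10 counts or more, their promoters are shown. Pparg and its partner bind repeats of the 6-base site AGGTCA. The 250 bases before the RefSeq start (GRCm38.p6, both genes on the minus strand, written in the direction of transcription) each hold 1 such site, given in capitals, which reads TGACCT here because it lies on the opposite strand.
Plin2, chr4:86670060-86670309: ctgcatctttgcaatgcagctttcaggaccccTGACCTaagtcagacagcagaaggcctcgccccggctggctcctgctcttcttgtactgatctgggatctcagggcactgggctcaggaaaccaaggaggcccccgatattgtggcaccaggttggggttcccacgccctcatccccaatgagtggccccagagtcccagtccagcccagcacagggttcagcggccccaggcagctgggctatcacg
Cd36, chr5:17835897-17836146: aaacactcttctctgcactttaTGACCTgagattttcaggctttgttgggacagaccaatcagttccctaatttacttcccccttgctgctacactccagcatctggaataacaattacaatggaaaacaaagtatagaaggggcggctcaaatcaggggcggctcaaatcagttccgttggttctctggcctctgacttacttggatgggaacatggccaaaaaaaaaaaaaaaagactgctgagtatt
The site lay 218 to 213 bases before the start in Plin2 and 228 to 223 bases before it in Cd36, where the start used lies inside the span of the annotated gene. The site, on either strand, was also found in 250 bases before 2 of 3 Pparg starts, so 4 of the 11 RefSeq promoter entries of 7 genes held one, against 14.0% of the 32851 entries of all mouse genes. The full repeat, 2 sites in the same direction with 1 base between them (DR1), was in 0.0396% of the promoters when 50 bases after the start were included, and in none of the 7 genes. These matches only describe the letters of the windows. Fabp4, Fabp5 and Lpl had no entry.

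Cell 1 of the Tnmd-/- group also carried many counts of other genes of fatty acid use and sterol synthesis. The values of Acadm and Hadhb, enzymes of mitochondrial fatty acid oxidation, were picked out after they were seen: Acadm had 2057 Tnmd-/- counts against 3 WT counts and Hadhb 1726 against 70, and all of the Tnmd-/- counts of both were in this cell. It held 1973 of the 4451 Tnmd-/- counts of Hmgcs1, an enzyme of early cholesterol synthesis. Endothelial cells are known to express Cd36 as well. Of 10 endothelial markers Pecam1 alone reached 10 counts in any cell. Tnmd-/- cell 1 had 160 counts of Pecam1, 4 of Tek and 1 of Cldn5, a summed level of 31.1 CPM, against 0 to 1.99 CPM in the other Tnmd-/- and 0 to 0.220 CPM in WT cells, while Cdh5, Tie1, Egfl7 and Emcn were at 0 in all 12 cells. Among 6 markers of fibro-adipogenic mesenchymal cells, which give rise to fat in muscle, Dpp4, Pi16, Cd34 and Dlk1 were at 0 in every cell. The summed level was 797 CPM in Tnmd-/- cell 1, from Ly6a, the highest of the Tnmd-/- cells. Tnmd-/- cell 20 followed at 565 CPM, the other 4 lay between 0.290 and 11.3 CPM, and the WT cells ranged from 0 to 950 CPM. Pdgfra, the remaining marker of the list, had 1 count in Tnmd-/- cell 1. It had 2258 counts in Tnmd-/- cell 20, 1209 in WT cell 4 and 816 in WT cell 5. The part of endothelial or mesenchymal cells in the Cd36 and Plin2 values was not tested.

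Fabp4 (ENSMUSG00000062515, chr3:10204088-10208576), the fatty acid binding protein of adipocytes and capillary endothelium, had the highest level of the 10 genes in any Tnmd-/- cell. Tnmd-/- cell 3 held 1387 counts, or 922 CPM (874 to 972), Tnmd-/- cell 20 held 2, and the other 10 cells, with all WT cells among them, held 0. The Tnmd-/- sum was 39.6 CPM (37.5 to 41.7) and at least 705-fold above WT. Without Tnmd-/- cell 3 it was 2 counts against 0, and no ratio can be formed. This is the cell with 51.8% mitochondrial counts, 1504775 counts in all and the lowest Dcn level, and its part in the value was not tested. The annotation used for counting gives Fabp4 an exon length of 4489 bases, 100% of its span, so reads from its introns are counted too. Fabp5 (ENSMUSG00000027533, chr3:10012548-10016607), its neighbour and close relative, had 0 counts in all 12 cells. Of its 100-base stretches 2.19% are shared with Gm14328 or Gm6166. The sequence of a read wholly inside them does not tell these genes apart, while a read that reaches beyond them may still be unique.

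Adipoq (ENSMUSG00000022878, chr16:23146536-23158028) had 0 counts. The markers of mature adipocytes were close to absent as well. Of 10 further markers, Cidec, Cidea, Lep, Retn, Cfd, Lipe, Pck1 and Acvr1c were at 0 in all 12 cells, and Plin1 had 3 counts in WT cell 2. The adrenergic receptor gene Adrb3 had 176 counts (117 CPM), all in Tnmd-/- cell 3, the cell that held Fabp4. The summed level of the list was 0 to 117 CPM in Tnmd-/- and 0 to 0.622 CPM in WT cells. The receptors of adiponectin were detected while the hormone was not. Adipor1 was seen in 4 Tnmd-/- and all 6 WT cells, with sums of 303 and 97.9 CPM and a log2 ratio of 1.63 (1.58 to 1.68). Tnmd-/- cell 9 alone held 5692 of the 10642 Tnmd-/- counts. Adipor2 went the other way, with 5 Tnmd-/- counts against 2771 WT counts, of which WT cell 5 held 1736 and WT cell 2 held 1035 (log2 ratio -8.51, -10.13 to -7.28).

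The apolipoprotein genes were the most widely seen of the 10. Apod (ENSMUSG00000022548, chr16:31296192-31314808) encodes a lipocalin that binds small lipids, and Apoe (ENSMUSG00000002985, chr7:19696109-19699188) the ligand by which lipoprotein remnants enter cells. In Tnmd-/- cells Apod had 2113 counts in cell 9 (204 CPM), 768 in cell 20 (114 CPM), 54 in cell 7 (60.5 CPM), 12 in cell 3 (7.97 CPM) and 0 in cells 1 and 10. In WT cells it had 3173 counts in cell 14 (703 CPM), 2076 in cell 5 (173 CPM), 3 in cell 2 (0.622 CPM) and 0 in cells 1, 4 and 10. More Tnmd-/- cells than WT cells thus held Apod, 4 against 2, but the highest value was in a WT cell and the genotypes overlapped. The median over cells was 34.2 CPM in Tnmd-/- and 0.311 CPM in WT. The sums went the other way, at 84.0 CPM (81.0 to 87.1) against 98.3 CPM (95.6 to 101), a log2 ratio of -0.23 (-0.29 to -0.16).

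Single cells set the direction or the size of that small difference. Without WT cell 14 the WT sum of Apod was 42.5 CPM (log2 ratio 0.98), and without WT cell 5 it was 76.7 CPM (0.13). Without Tnmd-/- cell 9 the Tnmd-/- sum was 33.7 CPM, and the ratio stayed below 0 (-1.54). Leaving out Tnmd-/- cell 10 or Tnmd-/- cell 1, which held no Apod counts, gave 0.27 and 0.01. Among the 3 less degraded cells of each genotype the sums were 105 CPM in Tnmd-/- and 54.5 CPM in WT (log2 ratio 0.95), and among the 3 more degraded cells 8.56 and 207 CPM (-4.60). The mean over cells of log2(CPM + 1) was higher in Tnmd-/- cells, by 1.01.

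For Apoe, a single cell of each genotype held nearly all counts. WT cell 14 had 11400 counts, or 2524 CPM (2478 to 2571), WT cell 2 had 235 (48.7 CPM), and WT cells 1, 4, 5 and 10 had 6, 1, 0 and 2. Tnmd-/- cell 10 had 1200 counts, or 116 CPM (110 to 123), while Tnmd-/- cells 1, 9 and 20 had 6, 3 and 4 counts and cells 3 and 7 had 0. WT cell 14 gave 97.9% of the WT counts and Tnmd-/- cell 10 gave 98.9% of the Tnmd-/- counts. The cell medians were close, at 0.442 CPM in Tnmd-/- and 0.574 CPM in WT. The sums were 34.6 CPM (32.7 to 36.6) in Tnmd-/- and 218 CPM (214 to 222) in WT, a log2 ratio of -2.66 (-2.74 to -2.57) or 6.30-fold.

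This ratio turned over with the cells included. Without WT cell 14 the WT sum of Apoe dropped to 4.99 CPM and the log2 ratio was 2.79, and without Tnmd-/- cell 10 the Tnmd-/- sum was 0.525 CPM and the ratio -8.70. Among the less degraded cells Apoe stood at 44.1 CPM in Tnmd-/- against 0.0787 CPM in WT (9.13), and among the more degraded cells at 0.778 against 759 CPM (-9.93). WT cell 14 was the cell that carried Tnmd, and it had the highest Dcn level of all 12 (133605 CPM). Macrophages and Schwann cells are known sources of Apoe. Of 10 macrophage markers Ptprc, Adgre1, Csf1r, Lyz2, C1qa, C1qb, Tyrobp and Aif1 were at 0 in all 12 cells, and Mrc1 reached 10 counts in Tnmd-/- cells 7 and 20 only. The macrophage list summed to 0 to 140 CPM in Tnmd-/- and 0 to 0.221 CPM in WT cells, the latter from 1 count of Mrc1 in WT cell 14. Of 8 Schwann and nerve markers 4 were at 0 in all cells, Sox10, Cdh19 and Ngfr among them. The list stood at 0 in WT cell 14 and at 37.7 CPM in Tnmd-/- cell 10, mostly from 375 counts of S100b, within ranges of 0 to 96.2 CPM in Tnmd-/- and 0 to 173 CPM in WT cells. The part of S100b-bearing cells in the Apoe value of Tnmd-/- cell 10 was not tested. Mural and skeletal muscle markers were each at 0 for 4 of 6 genes, with sums of 0 to 118 and 0 to 6.72 CPM in Tnmd-/- and of 0 to 641 and 0 to 0.0802 CPM in WT cells.

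**Figure D2:**
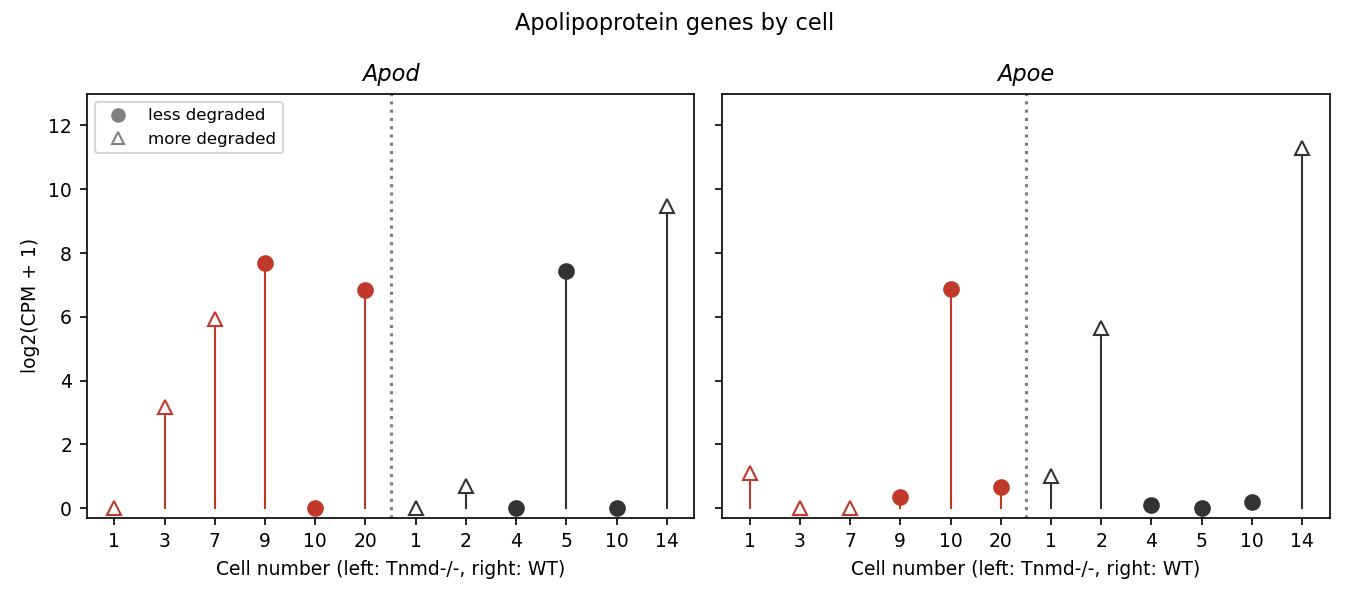
Points give log2(CPM + 1) of Apod (left) and Apoe (right) in each cell, red for the 6 Tnmd-/- and black for the 6 WT cells, filled for less and open for more degraded cells. Apod was above 0 in 4 Tnmd-/- and 3 WT cells, while Apoe has 1 tall point in Tnmd-/- cells (116 CPM) and 1 in WT cells (2524 CPM).

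**Figure D3:**
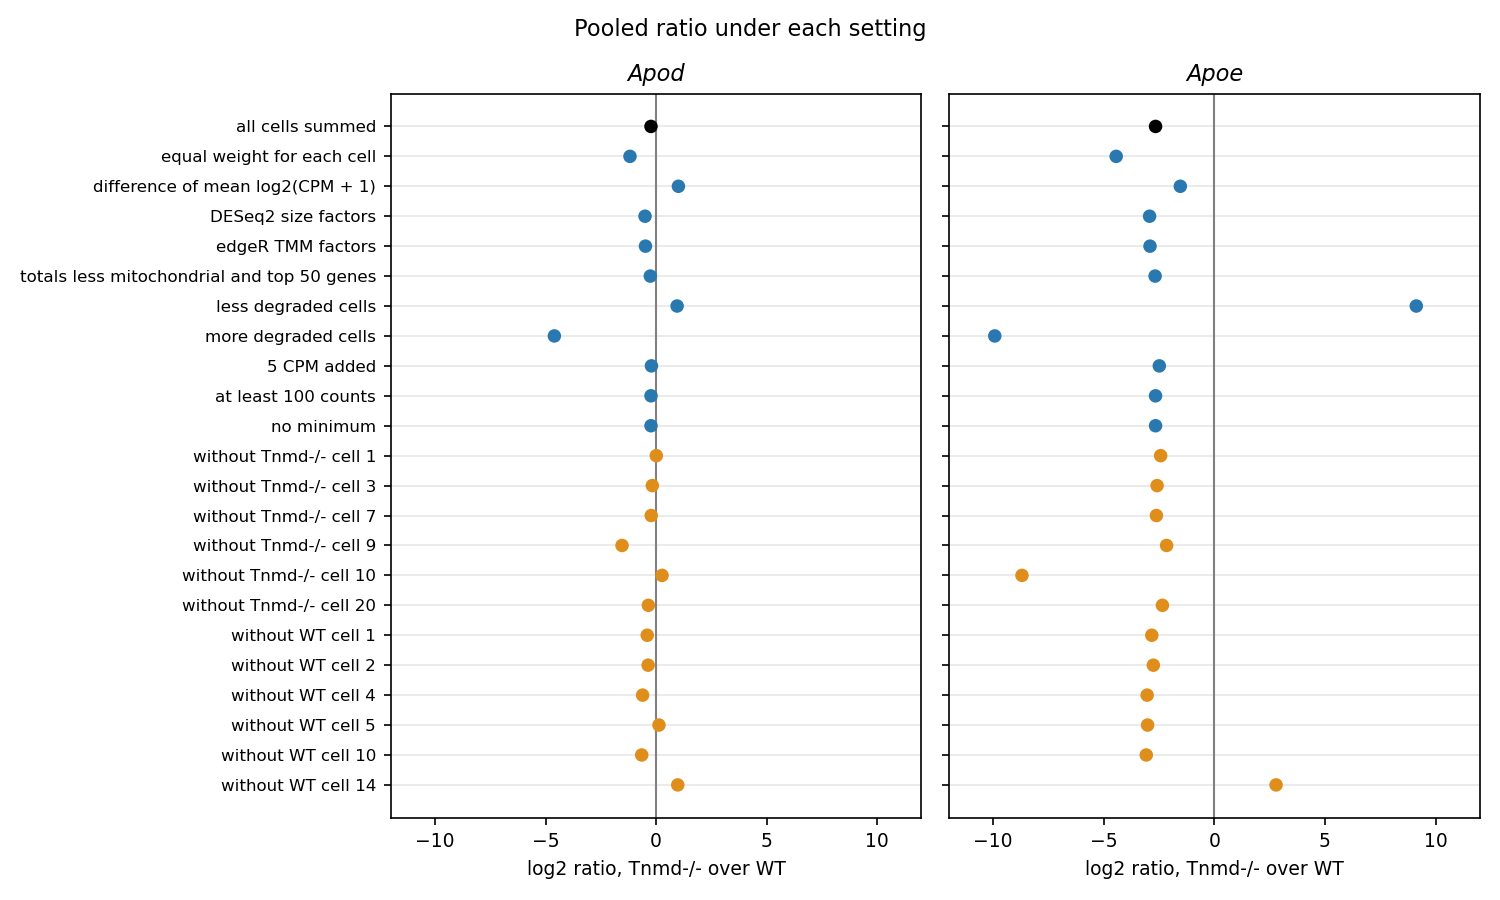
The horizontal axis is the log2 ratio of Tnmd-/- over WT for Apod (left) and Apoe (right). The black point is the ratio of all cells summed, blue points change the scaling, minimum or degradation grade, and orange points leave out 1 cell. Apod lies between -4.60, among the more degraded cells, and 1.01, on either side of 0, and Apoe is above 0 without WT cell 14 (2.79) and among the less degraded cells (9.13).

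The levels of different genes can be compared only per length of exon. On the scale of CPM per kb of exon in the summed cells, Apoe in WT was highest at 102, followed by Apod in WT at 38.1, Apod in Tnmd-/- at 32.6, Apoe in Tnmd-/- at 16.2, Plin2 in Tnmd-/- at 9.60 and Fabp4 in Tnmd-/- at 8.82. Cd36 in Tnmd-/- at 0.961 and Cebpa in WT at 0.674 came last of those above the minimum. The cells of each of these overlapped, since every one of the genes was at 0 in at least 1 cell of the genotype named, so no neighbours in this order differed beyond the spread between cells.

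Since Apod was the only 1 of the 10 with at least 10 counts in 4 or more cells, it was also the only 1 with a pattern that could be matched. Over the 12 cells and 3190 genes seen as often, the closest by Pearson correlation of log2(CPM + 1) were Nfat5 (0.854, Spearman 0.745), Prmt3 (0.839, Spearman 0.737) and Slc25a5 (0.813, Spearman 0.747), where the median gene had -0.096. Nfat5 is a transcription factor of the response to salt stress, Prmt3 a methyltransferase and Slc25a5 an ADP and ATP carrier of mitochondria. The 12 points are cells of a few animals that differ in depth and degradation, and the best of 3190 coefficients is high by selection.

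The 10 genes were then read against all genes of the table. A total of 9768 genes reached the minimum of 20 counts. Of these, 35.5% were at least 2-fold higher and 34.9% at least 2-fold lower in Tnmd-/- cells after 1 CPM was added. Among the 10, 6 passed that minimum. Fabp4, Cd36 and Plin2 were higher, Cebpa and Apoe lower, and Apod in between, so 3 and 2 of 6. On that scale the log2 ratios were 5.34 for Fabp4, 2.15 for Cd36, 5.06 for Plin2, -1.47 for Cebpa, -2.62 for Apoe and -0.22 for Apod, with a median of 0.96 against 0.06 over all genes. Dependence on 1 cell was common throughout the table, where 39.0% of the genes reached 10 counts in exactly 1 of the 12 cells and 44.2% had at least 90% of their counts in 1 cell, against 4 of 6 for each here.

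Beyond the 10, 131 further genes of fat cell formation and lipid handling were followed by role. In all, 45 had 0 counts in every cell and 75 passed the minimum of 20 counts. Of these, 22 (29.3%) were at least 2-fold higher and 24 (32.0%) at least 2-fold lower in Tnmd-/- cells, against the 35.5% and 34.9% of all genes, and the median log2 ratio was -0.40. Exactly 1 cell held 10 counts or more for 21 of them (28.0%). A total of 9 were seen in more cells than Apod, which reached 10 counts in 6 cells, and 2 were seen in all 12, Klf4 and Clu.

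Clu, a secreted apolipoprotein that also acts as a chaperone, was chosen after its values were seen. It ranged from 203 to 74228 CPM in Tnmd-/- and from 4460 to 63002 CPM in WT cells, with sums of 49231 and 36735 CPM and a log2 ratio of 0.42. The lowest value was again in Tnmd-/- cell 3. Only 1 other of the 13 apolipoprotein and lipid export genes passed the minimum and 11 had 0 counts. That gene was Abca1, which loads lipid on apolipoproteins: Tnmd-/- cell 9 held 5167 counts and Tnmd-/- cell 10, the cell with Apoe, 359, against 9 counts over the WT cells (log2 ratio 9.87, 8.94 to 11.00). Receptors of Apoe were seen too. Lrp1, also chosen after its values were seen, reached 10 counts in 5 cells of each genotype, with sums of 163 CPM in both. Lrp8 was lower in Tnmd-/- cells, with 8 counts against 3316, of which WT cell 10 held 2475 and WT cell 1 held 841 (log2 ratio -8.09, -9.30 to -7.11).

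In the group of uptake and lipoprotein receptors, 6 of 12 genes passed, 1 higher and 3 lower (35.5% and 34.9% of all genes). Got2, a mitochondrial aminotransferase that also binds fatty acids at the cell surface, was higher (142 against 46.3 CPM, log2 ratio 1.62, 1.55 to 1.69), with 2720 counts in Tnmd-/- cell 9, 2260 in Tnmd-/- cell 20 and 2467 in WT cell 10. Lipa, the lysosomal acid lipase, was lower, with 3 counts against 614. Among the other fatty acid binding proteins and carriers, 3 of 10 passed and 6 were at 0. Scp2, a sterol carrier, had 7 Tnmd-/- counts and 8453 WT counts, of which WT cell 2 held 4963, WT cell 10 held 2791 and WT cell 4 held 693, with no Tnmd-/- cell above 3 counts (log2 ratio -9.63, -10.95 to -8.59).

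Of the genes of the droplet coat and fat breakdown, 8 of 14 passed, 2 higher and 3 lower (35.5% and 34.9% of all genes). Fitm2, which helps droplets to form at the endoplasmic reticulum, was lower in Tnmd-/- cells (7 counts against 7615, log2 ratio -9.48, -10.80 to -8.44), and WT cells 10 and 2 held 5938 and 1670 of the counts. Plin4, a relative of Plin2, had 1352 counts, all in Tnmd-/- cell 7 (1514 CPM). In the same cell Scd1, the desaturase of stearic acid, had all of its 4345 counts (4867 CPM) and Acaca, which commits carbon to fatty acid synthesis, 806 counts (903 CPM) against 1 over the WT cells. The last 3 genes were chosen after their values were seen, and they stood in the shallowest cell, which held none of Pparg, Cd36, Fabp4 or Plin2.

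Fatty acid and triglyceride synthesis had 10 of 17 genes above the minimum, 4 higher and 3 lower (35.5% and 34.9% of all genes). Acsl3, which activates fatty acids for droplets, was higher (223 against 6.89 CPM, log2 ratio 5.02, 4.87 to 5.17), from Tnmd-/- cells 9 and 10 with 4785 and 3024 counts. Fasn, the fatty acid synthase, was lower, with 3 counts against 1718 in WT, of which WT cell 2 held 1369 and WT cell 1 held 347 (log2 ratio -8.55, -10.83 to -7.01). Lpin2, a phosphatase on the way to triglycerides, had 1 count against 746. Fatty acid oxidation had 7 of 9 genes above the minimum, 5 higher and 0 lower (35.5% and 34.9% of all genes), with a median log2 ratio of 3.04. For 4 of the 5 a single cell held at least 90% of the counts (44.2% of all genes). This was Tnmd-/- cell 1 for Acadm and Hadhb and Tnmd-/- cell 10 for the other pair.

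Cholesterol genes were the best covered, with 16 of 18 above the minimum, 3 higher and 8 lower (35.5% and 34.9% of all genes), and a median log2 ratio of -1.57. For 4 of the 8 lower genes a single WT cell held at least 90% of the counts. Of all genes above the minimum, 44.2% had such a share in any 1 cell. Hmgcs1 (127 against 12.5 CPM, log2 ratio 3.34, 3.22 to 3.46) was higher and was seen in 3 Tnmd-/- cells and 1 WT cell. Insig2, which holds back sterol synthesis, had 1 count against 4584, and Cyp51, a later enzyme of the path, 3 against 3161 (-9.43, -11.71 to -7.89). WT cell 10 held 3845 of the Insig2 counts and WT cell 1 held 2858 of the Cyp51 counts. Of 8 adipokines and their receptors 5 passed, 1 higher and 2 lower (35.5% and 34.9% of all genes).

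**Figure D4:**
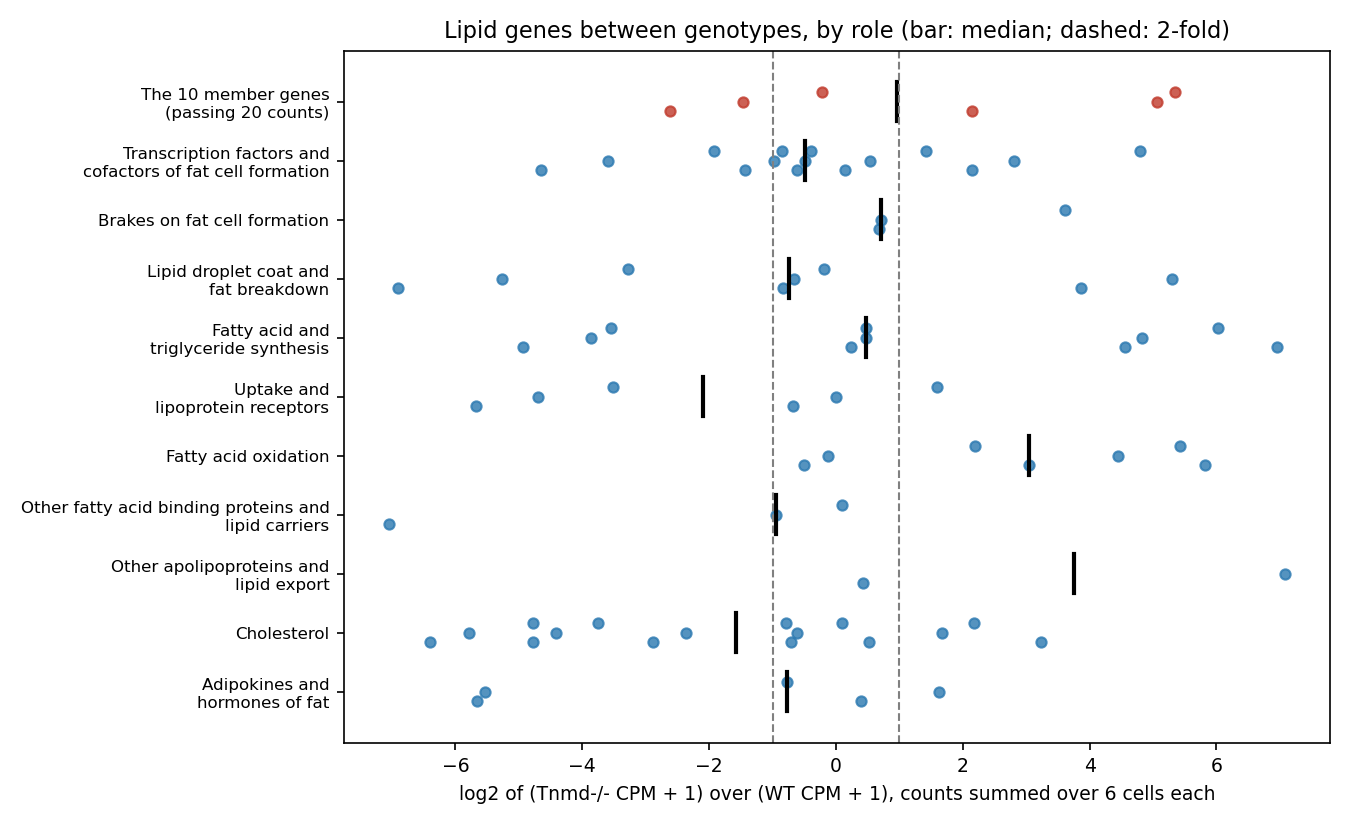
Each point is a gene with at least 20 counts, placed by its log2 ratio of Tnmd-/- over WT with 1 CPM added, and the rows are the 10 genes (red, 6 passing) and the 10 role groups (blue). Bars give medians and dashed lines mark 2-fold. Points lie on both sides of 0 in most rows, and the medians run from -2.10 for uptake and lipoprotein receptors to 3.75 for other apolipoproteins, which has only 2 points.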

How the data were processed

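Single ScxGFP+ cells were amplified by Smart-Seq2, which tags no molecules, and sequenced with paired reads. Before deposit the authors trimmed the reads (BBDuk) and dropped any not specific to mouse (BioBloom Tools). Alignment was to GRCm38 with STAR 2.5.1b, and featureCounts (Subread 2.0.0) counted unique reads in Ensembl 96 exons. The deposited table holds these raw counts without normalization. The strand of counting is not given in the sources used here. Groups came from the sample labels. The degradation grade came from the annotation of the study's heat map. Cells count as 1 sample per genotype, so counts were summed over 6 cells and divided by the summed total (CPM), with exact Poisson and Clopper-Pearson intervals, which cover counting error only. A sum of 0 was set at 3 counts to bound a ratio. A gene was seen in a cell at 10 counts, and ratios over many genes took those with 20 counts or more in the 12 cells together and had 1 CPM added.

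The genes, the role and marker lists and the rules were chosen with earlier results of these data known. Named beyond the 10 genes were at most 2 genes per role group and direction, by the size of the ratio with 1 CPM added, at least 2-fold and at 10 counts in at least 2 cells of the higher genotype, and Fam120b. Further lipid genes were picked with their values in view, as the text states beside each. Some genes of these lists are not reported here. Likeness used genes at 10 counts in at least 4 cells. Gene positions came from GENCODE M21, where 99.9% of the 55418 symbols had the same exon length, and promoters from RefSeq. Alternatives were equal weight for each cell, the mean of log2(CPM + 1), DESeq2 1.42.0 and edgeR 4.0.16 (TMM) size factors, totals without mitochondrial genes and the top 50 genes, each degradation grade alone, each cell left out, 5 CPM added, a minimum of 100 counts or none, and 1 count to be seen. Computation used Python 3.11.15, pandas 2.3.3, scipy 1.17.1 and R 4.3.3. The ratio and its interval were tested on simulated counts with counting error only. That test therefore says nothing about the spread between cells. The authors' differential expression results were not used.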

Additional observations from a re-analysis of the deposited data

Results flagged for a closer look

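In groups of 6 cells, a value was marked when its gap to the nearest other cell exceeded Dixon's 95% limit for the range of the group. Chance marks about 1 in 20 groups, and a group in which 5 cells are at or near 0 is marked by construction. The values so marked were Cebpa in WT cell 4 (7.62 CPM), Fabp4 in Tnmd-/- cell 3 (922 CPM), Cd36 and Plin2 in Tnmd-/- cell 1 (22.8 and 222 CPM), Apod in WT cell 14 (703 CPM), and Apoe in Tnmd-/- cell 10 (116 CPM) and WT cell 14 (2524 CPM). Apod in Tnmd-/- cells was not marked.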

How the results depend on the processing

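The labels name no animal, cells of a genotype are not replicates, and 3 counts stand for 0.220 to 3.36 CPM in a single cell, so a gene at 0 was not detectable below that level. No paired analysis was possible because the numbers shared by both genotypes (1 and 10) only name picked cells, and no result comes from a test. No ratio exists for Fabp4 without Tnmd-/- cell 3, for Cd36 and Plin2 without Tnmd-/- cell 1, for Cebpa without WT cell 4, or for these genes within the degradation grade that lacks their counts. Elsewhere these 4 kept their direction but not their size. By the difference of mean log2(CPM + 1), Cebpa went from -4.38 to -0.52 and Cd36 from 5.94 to 0.76. Fabp4 went from 9.46 to 1.70 and Plin2 from 9.82 to 1.31. With 5 CPM added the log2 ratios were -0.44 for Cebpa, 0.76 for Cd36, 3.16 for Fabp4 and 2.94 for Plin2.

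For Apod (-0.23) the log2 ratio was -1.18 with equal weight for each cell, 1.01 as a difference of mean log2(CPM + 1), -0.50 with DESeq2 and -0.48 with TMM factors, 0.95 in less and -4.60 in more degraded cells, and -1.54 to 0.98 with 1 cell left out. For Apoe (-2.66) these values were -4.44, -1.54, -2.93, -2.91, 9.13, -9.93 and -8.70 to 2.79, and 5 CPM added gave -2.49. It turned to higher in Tnmd-/- among less degraded cells (9.13) and without WT cell 14 (2.79). The count of the 10 genes at least 2-fold higher (3) was 1 in less degraded cells, 2 with 5 CPM added and 1 to 4 with 1 cell left out. The count at least 2-fold lower (2) was 3 with equal weight for each cell and 1 to 3 with 1 cell left out. It was 1 by mean log2, in less degraded cells, with 5 CPM and at 100 counts. Shares of all genes under these settings are not given. The gene and cell pairs seen were 14 in Tnmd-/- and 10 in WT at 1 count, 3 and 2 in less and 5 and 3 in more degraded cells, and 6 to 8 and 3 to 5 with 1 cell left out. The median of the other lipid genes (-0.40) was -0.06 by mean log2, -0.65 with DESeq2, -0.62 with TMM, -0.18 in less and -1.19 in more degraded cells, -0.17 with 5 CPM, -0.04 with no minimum, and -0.66 to 0.20 with 1 cell left out. Their counts higher and lower stayed within 1.5 times. The cause of these shifts was not tested.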
